A study of Homo sapiens with 4 samples.

Results

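Transcript levels of MM.1S cells that had received only the vehicle were described from 2 RNA sequencing libraries. MM.1S is an established human line of multiple myeloma, a cancer of antibody-secreting plasma cells, and it is 1 line, so its levels describe that line and not the disease. The cells grew in RPMI-1640 medium with fetal bovine serum and were collected 26 h after addition of DMSO, whose concentration is not given in the sources used here. The libraries are numbered 1 and 2 and were described by the submitters as biological duplicates. Genes were kept when their mean level over both libraries was at least 1 TPM (a read number per unit of transcript length, on a scale where every library has one fixed sum). This left 11957 of the 16057 genes in the table, or 74.5%. In all sentences below, a pair of values is the level in replicate 1 followed by that in replicate 2.

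Plasma cells are the end stage of the B lineage and are specialised to make and export immunoglobulin. IRF4, PRDM1 and XBP1 establish that state: PRDM1 silences B cell genes, IRF4 is required for plasma cell survival, and XBP1 enlarges the secretory apparatus after its mRNA has been spliced by the stress sensor IRE1. Immunoglobulin chains enter the endoplasmic reticulum (ER) through the translocon, are glycosylated, oxidised and folded there, and leave in coated vesicles, while misfolded chains are returned to the cytosol for the proteasome. In myeloma, translocations into the immunoglobulin loci place oncogenes such as MAF, NSD2 or CCND1 under immunoglobulin enhancers, and MM.1S carries the one that involves MAF.

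Both libraries had a similar depth, estimated from the spacing of low values at 9460000 and 9540000 reads, and 1 TPM in a transcript of the median length of 2713 nt was worth 12.7 and 12.6 reads. The kept genes held 99.90% of the total in each library. Their median level was 21.0 TPM, 8204 of them (68.6%) reached 10 TPM, 1593 (13.3%) reached 100 TPM and 131 (1.10%) reached 1000 TPM. Of the kept genes 225 were under 1 TPM in 1 library, and 218 genes that were left out reached 1 TPM in 1 library. Just inside the threshold stood HIST1H2BC (2.00 and 0 TPM), ALOX12 (1.45 and 0.55 TPM) and CCDC30 (0.67 and 1.33 TPM). Just outside it stood PAQR5 (1.16 and 0.83 TPM), FXYD1 (1.19 and 0.80 TPM) and ZNF433 (1.27 and 0.72 TPM). Levels fell with transcript length, from a median of 51.6 TPM in the 928 genes with transcripts up to 1000 nt to 15.2 TPM in the 3490 genes over 4000 nt, and the part of length in the differences between gene groups was not tested.

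**Figure D1:**
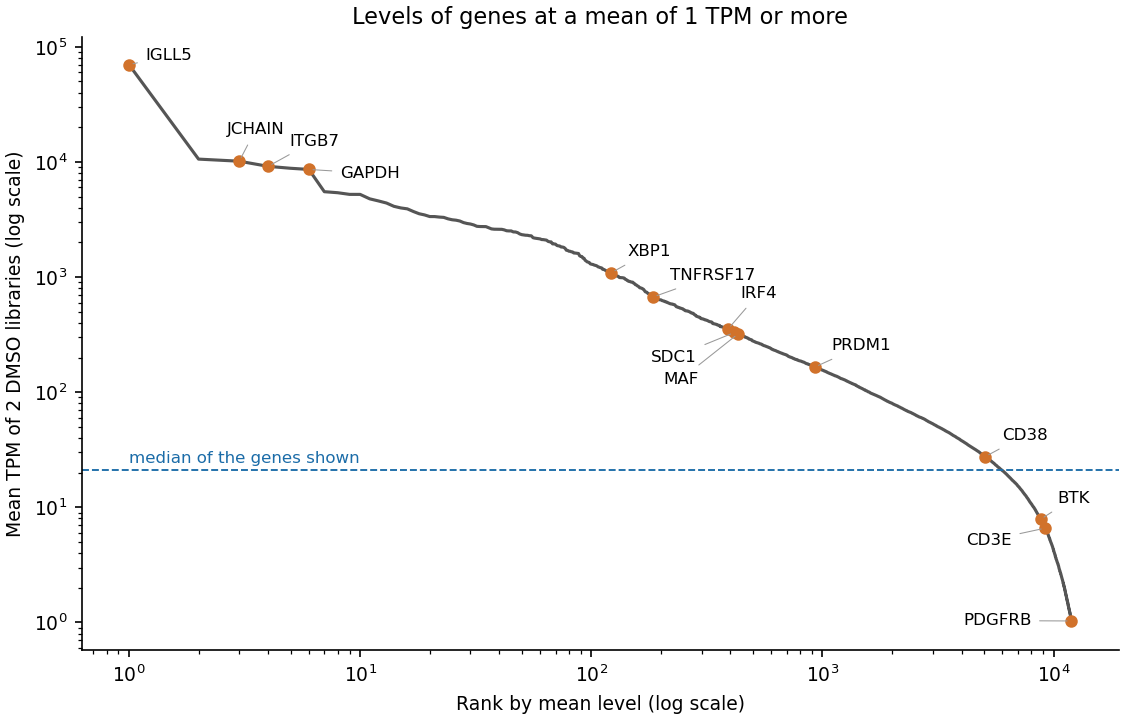
Mean TPM of the 2 DMSO libraries against rank, both on log scales, for the 11957 kept genes. Orange points are named genes, and the dashed line is the median of 21.0 TPM. IGLL5 stands alone at the top, the plasma cell markers XBP1 to PRDM1 lie between ranks 122 and 927, and the lymphoid genes BTK and CD3E lie below the median.

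The distribution was steep at its top, and its top belonged to immunoglobulin assembly, the ribosome, a MAF-associated integrin and transcripts that resemble mitochondrial ribosomal RNA. The 10 highest genes held 14.8% and 13.1% of all TPM, and 305 genes held 50% of the mean total. IGLL5, an immunoglobulin lambda-like gene, was the highest at 80052 and 59925 TPM, which is 8.05% and 6.03% of the libraries. Over 43.0% of its transcript IGLL5 is identical to the lambda constant region IGLC1, so its value may hold reads from the light chain of the line, and these cannot be told apart. JCHAIN, which joins immunoglobulin units into polymers, held rank 3 at 9907 and 10383 TPM, and no near copy of it was found. The libraries were within 1.05-fold of each other for JCHAIN and differed 1.34-fold for IGLL5.

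ITGB7, the beta 7 integrin subunit that plasma cells use for adhesion to gut and marrow and a known MAF target, held rank 4 at 9828 and 8483 TPM. It exceeded the glycolytic enzyme GAPDH (8636 and 8574 TPM) in replicate 1 only, so the order of those 2 genes was not settled by the libraries. No near copy of ITGB7 was found. MTRNR2L2 (7670 and 9945 TPM), MTRNR2L8 (5028 and 6000 TPM) and MTRNR2L9 (3629 and 4339 TPM) also ranked among the 20 highest. The transcript of MTRNR2L2 is 95.1% identical to mitochondrial 16S ribosomal RNA over 99.9% of its length and that of MTRNR2L8 93.1%, so their levels may hold reads from that RNA and are uncertain as gene levels. Of the 19 of the 20 highest genes that could be searched, 14 had a near copy elsewhere in the transcriptome at 95% identity or more over at least 20% of the transcript, among them processed pseudogenes of RPL41, RPLP1, RPS27 and RPL35. The remaining highest genes included the ferritin light chain FTL (4350 and 4816 TPM), the disulfide isomerase TXNDC5 (4635 and 4155 TPM), the chemokine CCL3 (4210 and 2718 TPM) and the class I light chain B2M (3894 and 3200 TPM).

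All 6 plasma cell and myeloma markers were far above the median gene. XBP1 was the highest at 1185 and 997 TPM (rank 122). TNFRSF17, the BCMA receptor that sustains plasma cells, followed at 761 and 582 TPM (rank 185). IRF4 stood at 353 and 353 TPM (rank 390), SDC1, the syndecan CD138, at 379 and 281 TPM (rank 416) and MAF at 323 and 320 TPM (rank 432). PRDM1, which encodes BLIMP1, had the lowest level of the 6 at 177 and 154 TPM (rank 927), which is still above 92.2% of the kept genes. XBP1 exceeded TNFRSF17, and PRDM1 was below the other 5, in both libraries, whereas the order of IRF4, SDC1 and MAF differed between the libraries.

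The wider plasma cell list of 42 genes had 39 kept genes and 25 at 100 TPM or more, with a median of 235 TPM. Its 10 transcription factors were all kept. POU2AF1, a coactivator of immunoglobulin transcription, stood at 281 and 268 TPM, MEF2C at 151 and 158 TPM, and the lenalidomide-sensitive factors IKZF3 and IKZF1 at 63.4 and 60.6 TPM and at 47.8 and 46.6 TPM. The 13 immunoglobulin assembly genes had a median of 635 TPM. They included MZB1, a B-lineage ER chaperone, at 1566 and 1450 TPM, the signal peptidase subunit SEC11C at 1336 and 1204 TPM, and TENT5C, the poly(A) polymerase that stabilises immunoglobulin mRNA, at 333 and 335 TPM. Surface genes were uneven. The B cell receptor chain CD79B reached 31.2 and 23.7 TPM while its partner CD79A was just under threshold (0.96 and 0.97 TPM), the receptor CD27 stood at 2.47 and 3.33 TPM, and FCRL5, an Fc receptor-like protein often found on plasma cells, was lowest in the list at 0.27 and 0.08 TPM.

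Of 12 B cell transcription factors PAX5, EBF1 and BCL6 were under threshold, whereas the other 9, the class II genes and several further B cell genes were kept. PAX5, the factor that maintains B cell identity, was at 0.03 and 0.26 TPM, EBF1 at 0.04 and 0.08 TPM, and the germinal centre repressor BCL6 at 0.55 and 0.77 TPM. Of the 35 B cell and germinal centre genes in the table, 26 were kept, a share close to the 74.5% of the whole table. The list median was 7.87 TPM, below the median of all kept genes, and that of its 12 transcription factors was 7.88 TPM. Kept factors included ETS1 (20.4 and 18.9 TPM), SPIB (7.60 and 9.12 TPM), IRF8 (6.13 and 4.67 TPM) and BACH2 (4.14 and 5.67 TPM). CIITA, the activator of class II genes that PRDM1 also represses, stood at 11.1 and 10.7 TPM, and the class II genes were plainly present: CD74, the invariant chain, reached 2717 and 1926 TPM and HLA-DRA 644 and 372 TPM. TCF3, the E-protein of the whole B lineage, was the highest transcription factor of this list at 228 and 233 TPM. SPI1, a factor of B and myeloid cells, stood at 29.7 and 23.2 TPM.

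Most markers of other cell types were low, and LYZ and CD68 were above the median gene of 21.0 TPM. Of 11 measured T and NK cell genes 4 were kept, with TRAT1 (18.1 and 17.0 TPM) the highest and the defining genes CD3E at 5.49 and 7.70 TPM, CD4 at 0 in both libraries and CD8A at 0.07 and 0.27 TPM. Of 10 monocyte and macrophage genes 3 were kept, namely LYZ (37.0 and 45.1 TPM), CD68 (39.2 and 38.7 TPM) and FCN1 (3.05 and 2.91 TPM), while CSF1R was at 0 in both and CD14 at 0.42 and 0.99 TPM. Stromal, epithelial and erythroid lists held 1 of 7, 3 of 7 and 1 of 6 genes at the threshold, with HBB (8.19 and 7.34 TPM) the highest of all 3 lists. The summed levels of these 5 lists came to between 1.28 and 88.5 TPM per library. In bulk RNA, fewer cells of a type and less RNA per cell cannot be told apart.

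Of the 10 recurrent immunoglobulin translocation targets 6 were kept. MAF, IRF4 and MYC were high, NSD2 and CCND3 were above the median gene, and those under threshold included MAFA, FGFR3 and PAX5. MAF stood at 323 and 320 TPM, whereas its relative MAFA (0.09 and 0 TPM) was under 1 TPM in both libraries. FGFR3, a receptor kinase that is activated together with NSD2 in another class of myeloma, was also under threshold at 0.11 and 0.32 TPM. NSD2 itself, a histone methyltransferase, stood at 72.8 and 81.5 TPM. MYC, a driver of growth and ribosome production, reached 285 and 291 TPM. Thus MAF, IRF4, MYC and NSD2 each differed little between the libraries and were separated from MAFA and FGFR3 by far more than the libraries differed.

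**Figure D2:**
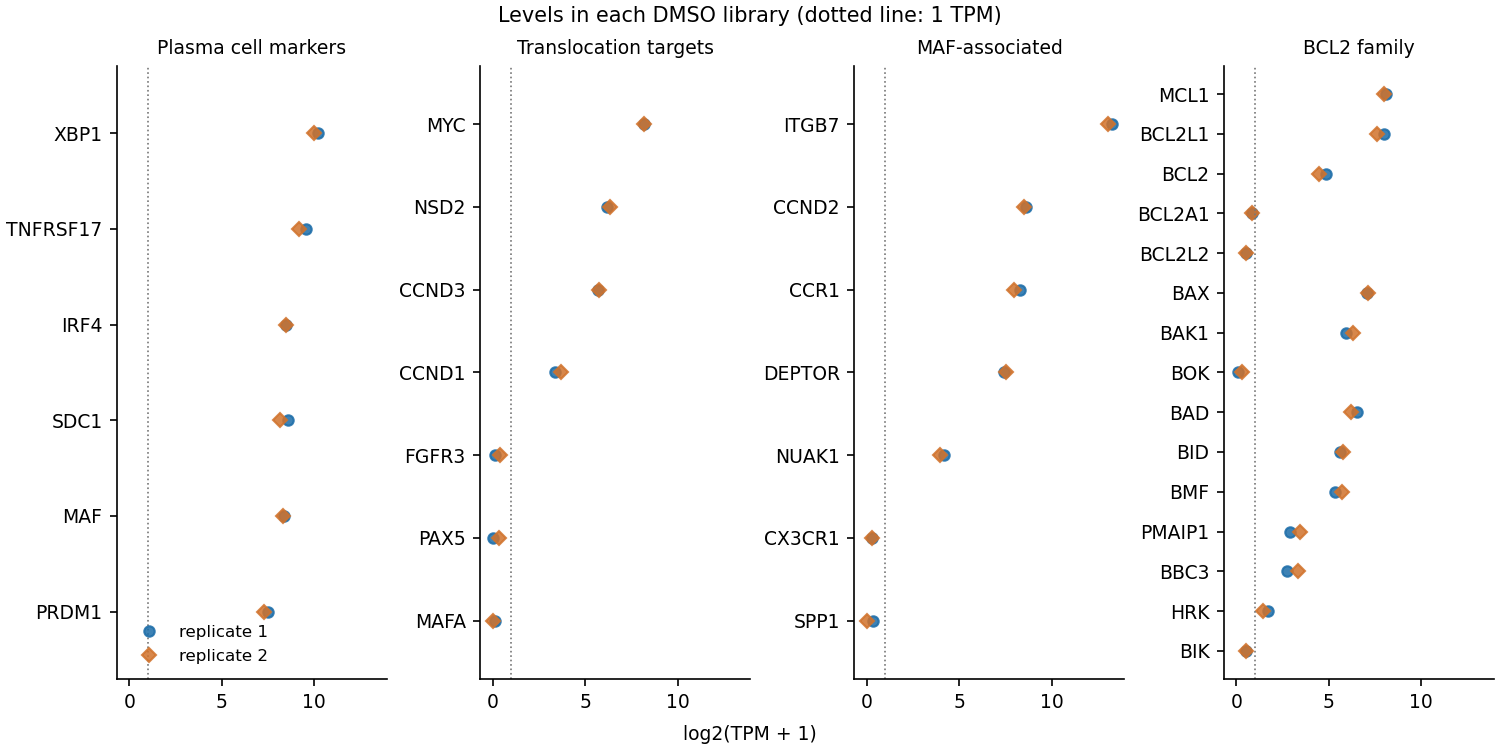
Levels in each DMSO library on a log2(TPM + 1) scale for the 6 plasma cell markers, other translocation targets, genes associated with MAF in myeloma and the BCL2 family. Blue circles are replicate 1, orange diamonds replicate 2, and the dotted line marks 1 TPM. Both libraries placed FGFR3, PAX5 and MAFA left of the line and MYC, CCND2, MCL1 and BCL2L1 far to its right.

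In myeloma driven by MAF the D cyclin known to be expressed is CCND2. CCND2 reached 387 and 366 TPM, CCND3 50.1 and 51.9 TPM, and CCND1 9.24 and 12.2 TPM. The ratio of CCND2 to CCND3 was 7.71 and 7.07, and that to CCND1 was 41.8 and 30.1, so the order of the 3 held in both libraries. Other genes associated with MAF were split. Besides ITGB7, whose level was 30.4 and 26.5 times that of MAF, CCR1, the receptor for CCL3, stood at 308 and 245 TPM, DEPTOR, an inhibitor of mTOR that is high in this class, at 169 and 183 TPM, and the kinase NUAK1 at 16.9 and 14.5 TPM. CX3CR1 (0.21 and 0.21 TPM) and SPP1 (0.29 and 0 TPM), listed with them, were under threshold. The small MAF partners MAFG (44.7 and 43.9 TPM), MAFF (21.8 and 24.8 TPM) and MAFK (20.7 and 22.3 TPM) were all kept.

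In the BCL2 family, which sets the threshold for mitochondrial cell death, 11 of the 15 genes in the table were kept. The protective members were led by MCL1 at 269 and 258 TPM and BCL2L1, which encodes BCL-XL, at 254 and 193 TPM. BCL2 was lower at 27.4 and 21.3 TPM, so that MCL1 was 9.79 and 12.1 times BCL2. BCL2A1 (0.82 and 0.83 TPM) and BCL2L2 (0.42 and 0.42 TPM) were under threshold. The effectors BAX (133 and 140 TPM) and BAK1 (59.6 and 78.4 TPM) were both present, and BOK was at 0.08 and 0.24 TPM. The BH3-only genes, whose products antagonise the protective members, were led by BAD (90.2 and 73.7 TPM), BID (48.5 and 54.6 TPM) and BMF (39.1 and 51.6 TPM). PMAIP1, which encodes NOXA, and BBC3, which encodes PUMA, stood at 6.37 and 9.78 TPM and at 5.71 and 9.05 TPM, HRK at 2.30 and 1.76 TPM, and BIK at 0.46 and 0.46 TPM. MCL1 was above BCL2L1 in both libraries, by 1.06 and 1.33 times, and in replicate 1 the gap was smaller than the difference of BCL2L1 between the libraries.

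Survival signalling genes showed a few strong members among many moderate ones. PIM2, a kinase on which myeloma cells depend, stood at 1303 and 1138 TPM, 27.4 and 25.6 times PIM1 (47.5 and 44.5 TPM). The interleukin 6 receptor IL6R reached 171 and 153 TPM and its signalling chain IL6ST 67.1 and 49.6 TPM, while the ligand IL6 was at 0.66 and 0.55 TPM. STAT3 stood at 21.4 and 21.9 TPM, JAK1 at 70.1 and 65.0 TPM, and the feedback inhibitor SOCS3 at 0.70 and 0.16 TPM, so the median of this list of 18 was 16.2 TPM. In the NF-kB list 26 of 27 genes were kept. NFKB2, the precursor of the noncanonical pathway, was the highest factor at 176 and 158 TPM, 5.01 and 4.38 times NFKB1, the inhibitor TNFAIP3 stood at 123 and 113 TPM, and REL was the lowest factor at 1.66 and 2.25 TPM. TRAF3, which restrains the noncanonical pathway, was the lowest of the 13 regulators at 12.3 and 11.5 TPM.

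Among 21 RAS and MAP kinase genes 20 were kept, with a median of 36.7 TPM. The phosphatase DUSP5, a feedback inhibitor of ERK, was the highest at 357 and 359 TPM, followed by the kinase MAP2K2 (229 and 198 TPM). NRAS stood at 38.3 and 54.8 TPM and HRAS at 68.1 and 62.8 TPM. The RAS inhibitor NF1 was low at 2.83 and 2.87 TPM, and SPRY2 was the only gene of the list under threshold at 0.21 and 0.96 TPM. All 31 genes in the table from the list of cell cycle checkpoint genes were kept. The ubiquitin ligase MDM2 stood at 112 and 120 TPM and the CDK inhibitor CDKN1A at 111 and 95.2 TPM. RB1 stood at 19.1 and 25.9 TPM. Among CDK inhibitors CDKN1B was the highest at 148 and 137 TPM, CDKN2D stood at 14.7 and 16.7 TPM and CDKN1C at 2.84 and 4.29 TPM.

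Surface proteins that are treatment targets in myeloma spanned the whole range of levels. After ITGB7 and CD74, the highest were BSG (794 and 752 TPM), TNFRSF17 (761 and 582 TPM), CD48 (554 and 457 TPM), SLAMF7 (479 and 344 TPM), SDC1 (379 and 281 TPM) and GPRC5D (363 and 291 TPM). CD46 stood at 163 and 154 TPM, CD70 at 72.1 and 67.9 TPM, CD47 at 65.3 and 68.1 TPM and LILRB4 at 28.0 and 45.2 TPM. CD38, the antigen of daratumumab, was only slightly above the median gene at 29.2 and 25.9 TPM, and TNFRSF17 was 26.1 and 22.4 times as high. ICAM1 stood at 8.50 and 8.03 TPM. FCRL5 (0.27 and 0.08 TPM) and CD200 (0.09 and 0 TPM) were under threshold. Of the 14 antigens kept, 12 were lower in replicate 2 (median log2 ratio -0.19), against 4886 of all 11957 kept genes. Several of them, such as TNFRSF17, SDC1 and CD74, are also counted in the plasma cell or B cell lists. Inside the cell, the targets of approved agents lay closer together: the export receptor XPO1 stood at 157 and 177 TPM, the proteasome subunit PSMB5 at 79.1 and 69.8 TPM, CRBN, the receptor of lenalidomide, at 21.8 and 20.4 TPM, and the glucocorticoid receptor NR3C1 at 29.8 and 27.8 TPM.

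The secretory pathway was expressed at every step, and its lists lay well above the median gene of 21.0 TPM. At ER entry all 25 genes were kept and 18 reached 100 TPM, with a median of 224 TPM. SSR2 (1007 and 900 TPM), SSR4 (752 and 458 TPM) and SEC61B (600.5 and 568 TPM) were the highest of the 12 genes listed for the translocon. SEC11C exceeded the other catalytic signal peptidase subunit, SEC11A (165 and 160 TPM), 8.12 and 7.54 times. SEC61A2, the less used alpha subunit gene, was the lowest of the step at 8.63 and 11.4 TPM against 432 and 434 TPM for SEC61A1. Glycosylation genes had a median of 256 TPM. CALR, a lectin chaperone, reached 1458 and 1777 TPM and CANX 532 and 556 TPM, the oligosaccharyltransferase subunits OST4 and KRTCAP2 stood at 687 and 647 TPM and at 544 and 538 TPM, and TUSC3 was listed at 0 in both libraries while its paralog MAGT1 stood at 94.3 and 95.8 TPM.

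Folding in the ER was represented by 31 genes, all of which were kept, with a median of 215 TPM. TXNDC5 led the disulfide isomerases, ahead of P4HB (1181 and 1036 TPM), and 79.9% of its transcript is shared with the readthrough gene BLOC1S5-TXNDC5. PPIB, a prolyl isomerase, stood at 1641 and 1564 TPM, and HSP90B1, the ER form of HSP90, at 1249 and 1242 TPM. HSPA5, the chaperone BiP that holds immunoglobulin heavy chains, stood at 420 and 494 TPM, about the level of MANF (363 and 418 TPM). ERO1B (2.96 and 3.08 TPM) was the lowest, whereas ERO1A, the other oxidase, reached 35.4 and 37.6 TPM. Among the sensors of the unfolded protein response ERN1, which encodes IRE1, stood at 54.6 and 48.0 TPM, EIF2AK3, which encodes PERK, at 53.9 and 51.2 TPM and ATF6 at 43.8 and 38.4 TPM. All 3 sensors lay within the narrow band from 38.4 to 54.6 TPM in both libraries, far below XBP1.

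Several of these genes carry the ER stress response element at their promoters. The element is bound by ATF6 and XBP1 and consists of CCAAT and CCACG separated by 9 bases. RefSeq promoter windows (GRCh38.p14, 250 bases before to 50 after the annotated start) were matched by symbol for 12458 genes of the table. The element, on either strand, was present in 27 of all 35116 windows (0.0769%), and in 8 of the 123 windows of the ER lists. Those 8 genes are shown because they include the ER chaperones CALR, HSP90B1, CANX and HSPA5 described above, with CCAAT and CCACG in capitals and each sequence on the strand of the match:
CALR, chr19:12938384-12938402, minus strand: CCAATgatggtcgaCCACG
HSP90B1, chr12:103930216-103930234, plus strand: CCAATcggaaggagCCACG
HSP90B1, chr12:103930321-103930339, minus strand: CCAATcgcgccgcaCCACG
XBP1, chr22:28800603-28800621, minus strand: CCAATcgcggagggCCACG
CANX, chr5:179698778-179698796, plus strand: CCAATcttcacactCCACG
HSPA5, chr9:125241391-125241409, minus strand: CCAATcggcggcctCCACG
SERP1, chr3:150546710-150546728, plus strand: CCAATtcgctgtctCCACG
CRELD2, chr22:49918554-49918572, minus strand: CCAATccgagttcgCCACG
ERO1B, chr1:236282183-236282201, plus strand: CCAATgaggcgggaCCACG
The median level of these 8 genes was 500.4 TPM, but they ran from CALR at the top to ERO1B near the threshold, and the 18 genes of the table with the element, of which 16 were kept, had a median of 21.1 TPM. In HSPA5 the match begins 66 bases before the start. The stretch from 10 bases upstream of it to the start, with the element in capitals, reads as follows.
HSPA5, chr9:125241344-125241419, minus strand: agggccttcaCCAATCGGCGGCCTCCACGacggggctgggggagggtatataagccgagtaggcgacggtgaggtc

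The list of export from the ER had a lower median than that of ER entry, at 93.8 TPM against 224 TPM. This did not hold for every part of the lists. In the entry list the translocon had a median of 335 TPM, signal peptidase 320 TPM and signal recognition 100 TPM. In the export list, with 32 of 33 genes kept, COPI had a median of 145 TPM and COPII with receptors 81.0 TPM. ARF1, the small GTPase that recruits the COPI coat, was the highest at 791 and 889 TPM, followed by the retrieval receptor KDELR1 (481 and 458 TPM) and the coat subunit COPE (445 and 413 TPM). KDELR3, another retrieval receptor, stood at 0.69 and 1.01 TPM against 81.4 and 88.4 TPM for KDELR2. Of the COPII inner coat genes SEC23B (88.2 and 86.6 TPM) was well above SEC23A (9.70 and 10.5 TPM), in both libraries. The motif TGACGTGG, an XBP1 binding sequence with a CREB-like core, was present in 256 of all 35116 promoter windows (0.729%) on either strand and in 9 of the 29 windows of this list. No gene of the table had both this motif and the spaced element. The matches in genes of the COPI and COPII coats and of their assembly are shown with 6 bases on each side, and COPB2 has a pair of them:
ARF1, chr1:228082686-228082705, plus strand: aggcgcTGACGTGGccgccg
COPB2, chr3:139389830-139389849, plus strand: gggccgTGACGTGGtgccgc
COPB2, chr3:139389637-139389656, plus strand: actgacTGACGTGGaacttc
COPA, chr1:160343232-160343251, minus strand: ggtcgcTGACGTGGaggcgt
COPB1, chr11:14499846-14499865, plus strand: cttggcTGACGTGGaagggg
SEC16A, chr9:136484712-136484731, plus strand: tccggcTGACGTGGcaccag
SEC24A, chr5:134648600-134648619, plus strand: agtcggTGACGTGGcggcga
SEC23A, chr14:39103226-39103245, minus strand: tcctctTGACGTGGcagagg
The 9 genes with the motif had a median of 50.8 TPM and the other genes of the list with a window had 99.7 TPM, so its presence did not go with a higher level within the list. A match describes letters in these windows and not a bound site.

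Degradation of ER proteins and the proteasome were expressed together with the folding genes. HERPUD1, a scaffold of the ER ubiquitin ligase, stood at 745 and 773 TPM, the conjugating enzyme UBE2J1 at 426 and 424 TPM and the extraction ATPase VCP at 375 and 385 TPM. DERL3, the derlin of secretory cells, reached 220 and 268 TPM, above DERL1 (113 and 113 TPM) and DERL2 (31.6 and 30.6 TPM). All 48 proteasome genes were kept, 48 were above the median gene, and 35 reached 100 TPM. The 20S core genes had a median of 291 TPM, yet they ranged from PSMB4 (953 and 908 TPM) to PSMA5 (38.4 and 39.2 TPM), a ratio of 24.8 and 23.2 for subunits that occur in equal numbers in the particle. The bortezomib target PSMB5 (79.1 and 69.8 TPM) was lower than its immunoproteasome counterpart PSMB8 (89.1 and 81.7 TPM) in both libraries. Among activators and lids, PSME2 (393 and 324 TPM) and PSMD4 (392 and 397 TPM) were the highest.

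HSPA8, the constitutive cytosolic HSP70, was the highest of the 13 kept HSP70 genes at 2724 and 2760 TPM, 8.43 and 8.43 times the mitochondrial HSPA9 (323 and 327 TPM). The stress-inducible pair was lower, HSPA1B at 139 and 182 TPM and HSPA1A at 9.90 and 8.97 TPM, but 85.3% of the HSPA1B transcript is 98.6% identical to HSPA1A, so the split between them is uncertain. HSPA6, which appears only under strong stress, stood at 1.71 and 1.64 TPM. The other cytosolic genes ran from HSPA4 (108 and 114 TPM), HSPA14 (77.8 and 95.8 TPM), HSPH1 (78.7 and 71.6 TPM) and HSPA4L (22.6 and 28.2 TPM) down to HSPA12A (0.64 and 1.38 TPM), HSPA1L (0.69 and 0.87 TPM), HSPA2 (0.46 and 0.15 TPM) and HSPA12B (0.07 and 0.07 TPM). In the ER, HYOU1, which recharges HSPA5 with nucleotide, stood at 194 and 199 TPM and HSPA13 at 42.6 and 52.0 TPM.

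Translation genes formed the most abundant group. The 78 cytosolic ribosome genes held 17.3% and 17.4% of all TPM, all 78 reached 100 TPM, and their median was 2078 TPM against 51.6 TPM for all kept genes with transcripts up to 1000 nt. RPL41, the smallest ribosomal protein, was the highest at 10267 and 10894 TPM, followed by RPLP1 (5501 and 4950 TPM), and RPL13 was the lowest at 270 and 264 TPM. Many have processed pseudogenes of near-identical sequence, so single ribosomal levels are uncertain. The elongation factor EEF1A1 stood at 5432 and 5369 TPM and EEF2 at 2056 and 2177 TPM, while initiation factors were lower, with EIF5A, now known as an elongation factor, and EIF4A1 at the top (1589 and 1634 TPM, 1012 and 1151 TPM) and the cap-binding EIF4E at the bottom (29.2 and 32.5 TPM). All 34 translation factors were above the median gene.

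Ribosomal protein and elongation factor mRNAs are known to begin with a C followed by a run of pyrimidines, the 5′ terminal oligopyrimidine tract, through which mTOR and LARP1 control their translation. The annotated starts of some of the most abundant genes are shown with 15 bases on each side of the boundary and the tract in capitals, beginning at the start itself. The first 5 genes carry it and the last 4, whose levels lie in the same range, do not:
RPL41, chr12:56116618-56116647, plus strand: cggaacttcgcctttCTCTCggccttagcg
RPLP1, chr15:69452803-69452832, plus strand: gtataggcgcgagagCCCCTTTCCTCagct
EEF1A1, chr6:73521018-73521047, minus strand: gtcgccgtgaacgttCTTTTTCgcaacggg
RPS27, chr1:153990747-153990776, plus strand: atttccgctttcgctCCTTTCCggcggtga
EEF2, chr19:3985449-3985478, minus strand: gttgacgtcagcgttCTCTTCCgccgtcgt
GAPDH, chr12:6535249-6535278, plus strand: agcgggtgcatccctgtccggatgctgcgc
ITGB7, chr12:53207237-53207266, minus strand: gtctcccagatcagtacacaaaggctgctg
JCHAIN, chr4:70666494-70666523, minus strand: ttgctccagtttttcagaagaagtgaagtc
FTL, chr19:48965294-48965323, plus strand: tagccacgtcccctcgcagttcggcggtcc
A start of a C and at least 4 more pyrimidines was present in 1429 of all 35116 windows (4.07%). In the table its share was 3.89% of 2907 genes under 1 TPM, 3.78% of 2860 from 1 to 10 TPM, 4.74% of 5384 from 10 to 100 TPM, 9.11% of 1197 from 100 to 1000 TPM and 41.8% of 110 at 1000 TPM or more. Of 63 ribosome windows 43 had it and of 26 translation factor windows 10 had it. Among genes at 1000 TPM or more outside those lists, 5 of 48 (10.4%) had it, namely NACA, NPM1, PTMA, RPL36A and TUBB. RPL36A is itself a ribosomal protein gene that the lists do not hold, so this share is not free of ribosomal genes. From 100 to 1000 TPM 97 of 1174 genes outside those lists (8.26%) had it, against 4.74% of 5380 from 10 to 100 TPM. The rise at 1000 TPM or more was therefore mostly carried by the translation genes themselves, whereas the smaller rise below it was also present among other genes. Both rest on annotated and not on measured start sites.

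**Figure D3:**
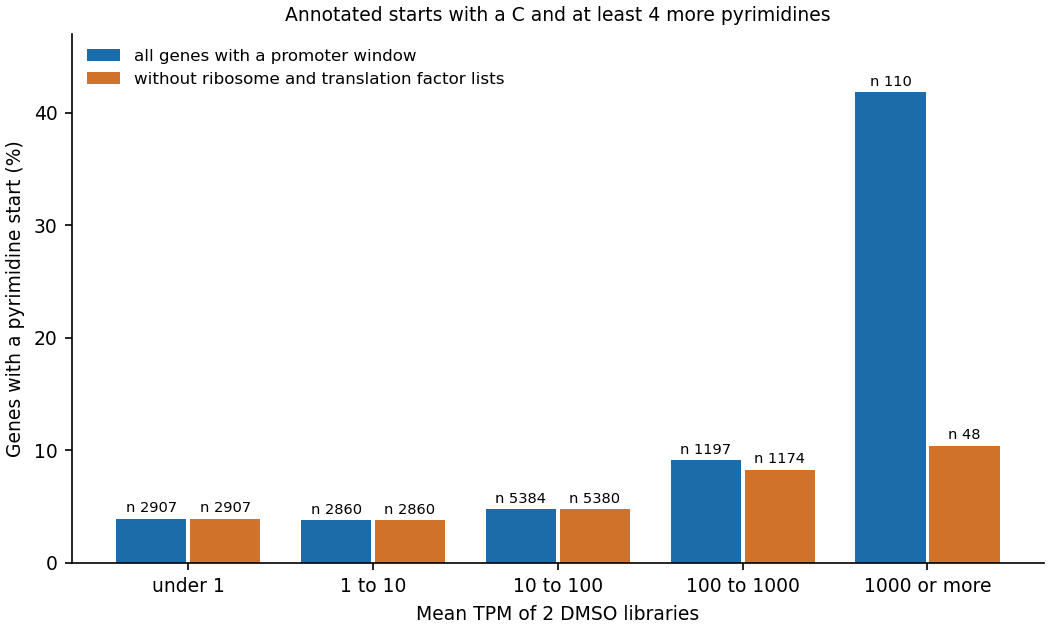
Share of genes whose annotated RefSeq start is a C followed by at least 4 pyrimidines, by mean TPM of the 2 DMSO libraries. Blue bars are all genes with a promoter window and orange bars leave out the ribosome and translation factor lists, with the number of genes above each bar. The share is near 4% up to 10 TPM and reaches 41.8% at 1000 TPM or more, or 10.4% without the translation lists. The last value still counts RPL36A, a ribosomal protein gene outside those lists.

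Glycolysis was expressed mainly through the ubiquitous isoforms of its enzymes. GAPDH (8636 and 8574 TPM), LDHA (1576 and 1658 TPM), TPI1 (1200 and 1388 TPM) and ENO1 (1179 and 1399 TPM) were the highest, and LDHB stood at 1043 and 1116 TPM, with LDHA 1.51 and 1.48 times as high. PFKL, the liver isoform of the committed step, stood at 160 and 152 TPM while PFKP was at 0.10 and 0.20 TPM. PKM stood at 528 and 573 TPM against 0.84 and 1.77 TPM for the red cell and liver isoform PKLR. The entry steps were lower, with HK2 at 24.8 and 23.9 TPM, HK1 at 9.11 and 9.78 TPM, HK3 listed at 0 in both, and the glucose carrier SLC2A1 at 24.2 and 24.6 TPM. The median over all 24 genes in the table was 42.6 TPM and that over the 22 kept was 107 TPM.

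Mitochondrial energy genes were uniformly present. Of 76 measured nuclear respiratory chain genes 75 were kept and 66 reached 100 TPM, with a median of 287 TPM. Complexes IV and V had medians of 495 and 457 TPM and complexes I and III 214 and 207 TPM. The highest were ATP5F1B (887 and 1070 TPM), NDUFV2 (859 and 889 TPM) and ATP5MF (831 and 869 TPM), and the muscle isoform COX7A1 was the only one under threshold at 0 and 0.58 TPM. In the TCA cycle IDH2 (303 and 277 TPM), FH (254 and 269 TPM) and SDHA (236 and 234 TPM) were the highest. PC, which replenishes oxaloacetate from pyruvate, was under threshold at 0.16 and 0.32 TPM. Among sterol genes INSIG1, which holds SREBP in the ER, reached 747 and 608 TPM and FDPS, the target of bisphosphonates, 594 and 572 TPM. In fatty acid synthesis SCD was the highest at 369 and 321 TPM and FADS2 the lowest at 3.30 and 3.68 TPM.

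**Figure D4:**
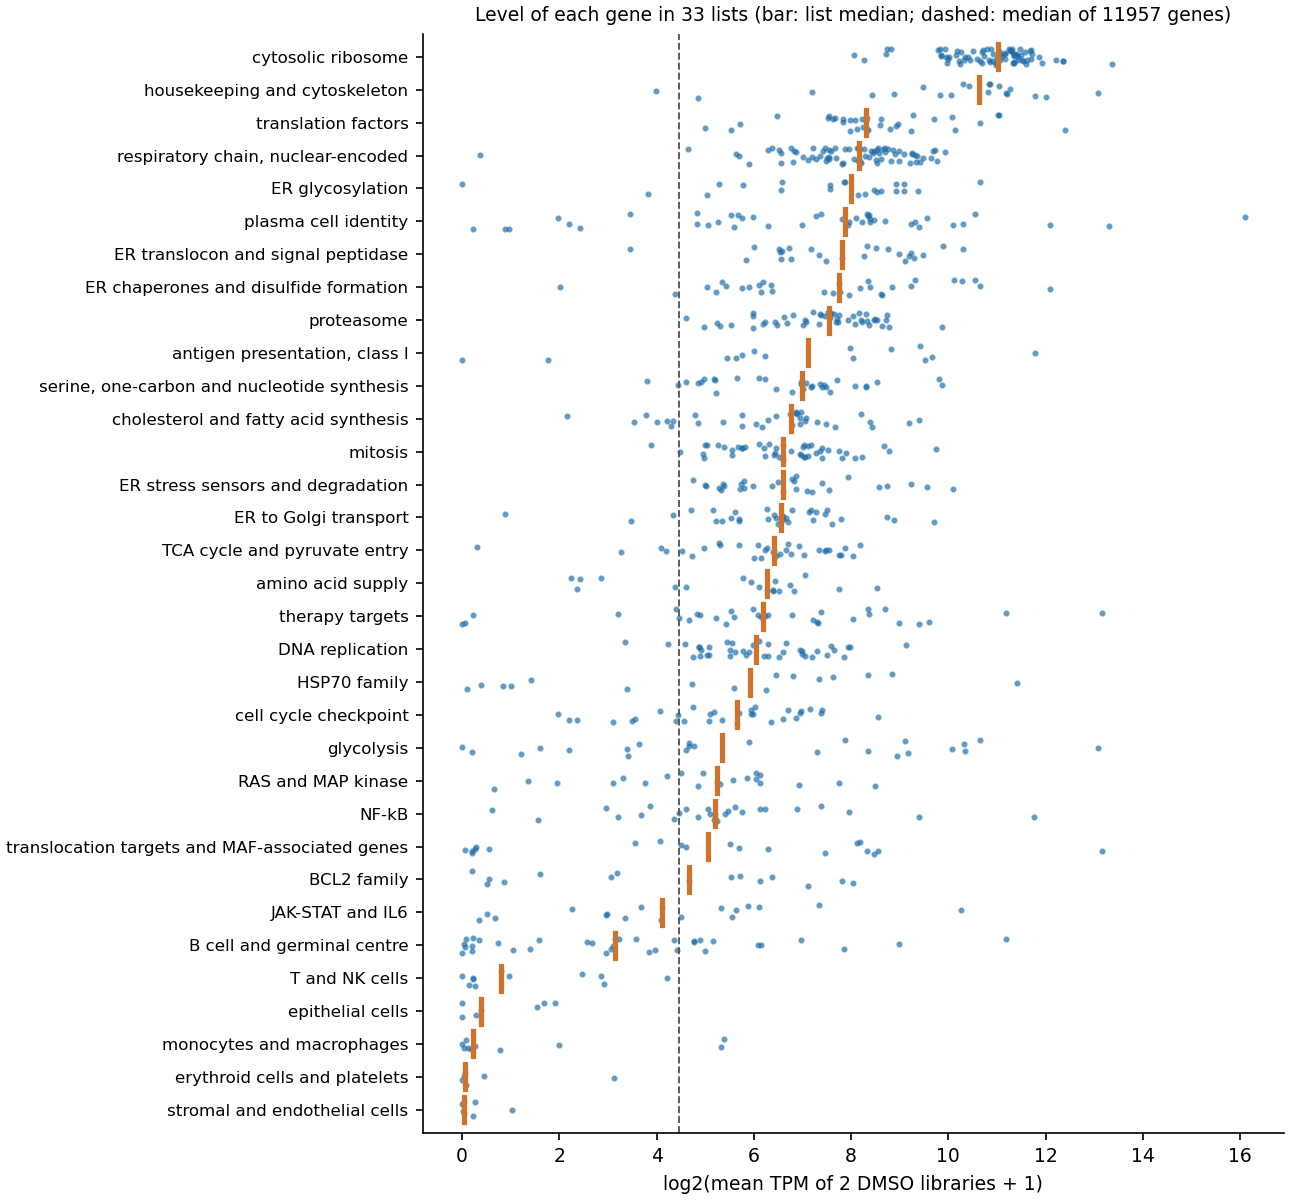
Level of each gene of 33 lists as log2(mean TPM of the 2 DMSO libraries + 1), 1 blue point per gene, with the list median as an orange bar and the median of 11957 genes as a dashed line. Ribosome, secretory, respiratory and proteasome lists lie to the right of the line, and the lists of other cell types lie near 0.

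Genes of nucleotide supply, DNA replication and mitosis were expressed throughout. RRM2, the regulated subunit of ribonucleotide reductase, stood at 878 and 987 TPM, ODC1, the first enzyme of polyamine synthesis, at 886 and 919 TPM and TYMS at 356 and 386 TPM. All 40 replication genes and all 47 mitosis genes were kept, with medians of 65.0 and 96.2 TPM. PCNA, the sliding clamp, reached 532 and 584 TPM, POLD2 248 and 254 TPM and MCM3, a helicase subunit, 241 and 247 TPM, whereas the polymerase subunit POLE2 was the lowest at 8.20 and 10.2 TPM. The proliferation antigen MKI67 stood at 153 and 171 TPM, STMN1 at 854 and 857 TPM, SMC4 at 424 and 448 TPM and CKS1B, a gene gained in myeloma, at 371 and 446 TPM. Of the other cyclins and kinases CDK4 stood at 160 and 172 TPM, CDK6 at 29.7 and 36.6 TPM, CCNE1 at 50.7 and 69.8 TPM, CCNE2 at 10.0 and 10.4 TPM, CCNA2 at 106 and 144 TPM and CCNB1 at 108 and 136 TPM. Amino acid supply was led by the glutamine carrier SLC1A5 (324 and 413 TPM), and the cystine carrier SLC7A11 (2.18 and 6.17 TPM) and the arginine enzyme ASS1 (1.91 and 5.56 TPM) were the lowest.

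Genes of class I antigen presentation were expressed. HLA-B stood at 764 and 602 TPM, HLA-C at 504 and 399 TPM and HLA-F at 739 and 734 TPM, while HLA-G was listed at 0 in both. The peptide transporter genes TAP1 (82.5 and 65.4 TPM) and TAP2 (64.5 and 61.9 TPM) were moderate, and NLRC5, the activator of class I genes, was low at 1.84 and 2.94 TPM. HLA genes are polymorphic, and how well their alleles matched the reference used by the authors was not tested.

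The libraries agreed closely but not evenly across gene groups. Across the 11957 genes Pearson's r was 0.992 on the log2(TPM + 1) scale, which describes genes within 1 pair of libraries and not independent replicates. The median absolute log2 difference fell from 0.188 for genes of 1 to 10 TPM to 0.074 for genes of at least 1000 TPM, and 96.7% of all kept genes were within 1.5-fold. More genes were higher in replicate 2 (7049) than lower (4886), with a median log2 ratio of 0.043. IGLL5 took a smaller share of replicate 2 (6.03% against 8.05%), and with IGLL5 left out of the scale that median was 0.013. Mitosis genes were higher in replicate 2 for 46 of 47 members (median log2 ratio 0.25; 45 of 47 with IGLL5 left out of the scale), replication genes for 35 of 40 (0.14; 34 without IGLL5) and serine, one-carbon and nucleotide genes for 31 of 32 (0.14; 28 without IGLL5). Amino acid supply genes were higher for 15 of 19 (0.25; 14 without IGLL5) and housekeeping and cytoskeleton genes for 17 of 20 (0.13; 16 without IGLL5). In the other direction, B cell genes were lower in replicate 2 for 19 of 26 members (median log2 ratio -0.29) and class I genes for 11 of 13 (-0.20). Plasma cell genes were lower for 31 of 39 (-0.15) and NF-kB genes for 21 of 26 (-0.13). In each of these lower lists at least as many members were lower with IGLL5 left out of the scale. The class II genes CD74, HLA-DRA and HLA-DRB3 (36.8 and 19.2 TPM), picked after their values were seen, were each lower in replicate 2.

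**Figure D5:**
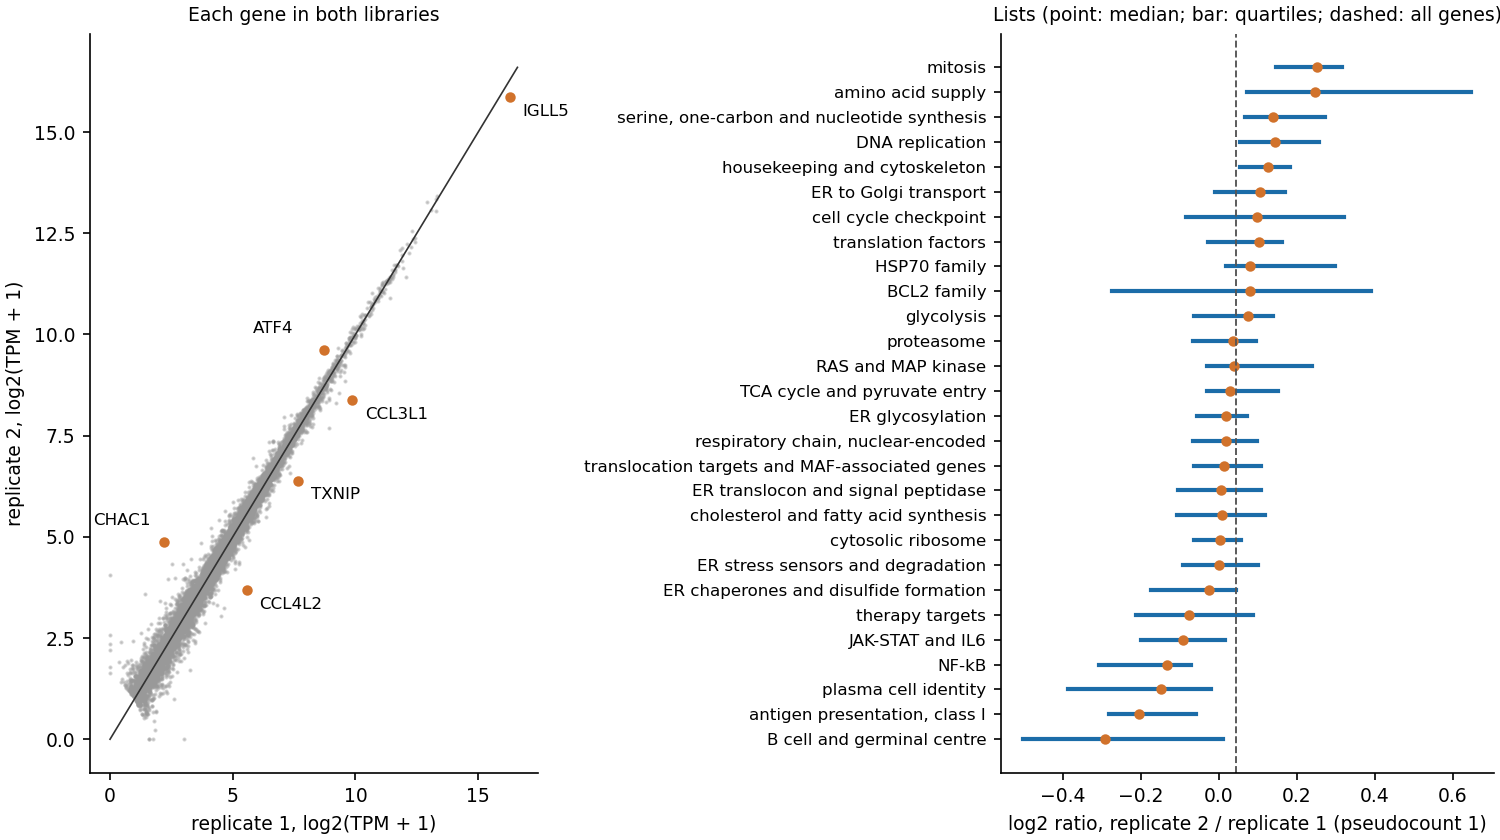
Left, log2(TPM + 1) of each of the 11957 genes in replicate 1 against replicate 2, with the line of equality and 6 named genes in orange. Right, log2 ratio of replicate 2 to replicate 1 for the members of each list with at least 10 kept genes (orange point the median, blue bar the quartiles, dashed line the median of 0.043 over all genes). Mitosis and amino acid supply lie right of the line and B cell, class I and plasma cell lists left of it.

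Of the 11957 kept genes 32 were over 2-fold higher and 28 over 2-fold lower in replicate 2 (pseudocount 1 TPM). Of these, 23 and 21 had a mean of 1 to 10 TPM and were not considered for naming. Among genes of at least 10 TPM the largest excess in replicate 2 was that of CHAC1, a glutathione-degrading enzyme induced by ATF4 (3.53 and 28.3 TPM), followed by HIST2H2AC (4.82 and 18.95 TPM), DMBT1 (6.92 and 19.01 TPM) and CD52 (5.30 and 14.7 TPM). HIST2H2AC is 95.3% identical to HIST2H2AA3 over 97.7% of its transcript, so its level is uncertain. EIF3CL (55.2 and 123 TPM) is 99.9% identical to EIF3C, which moved the other way (329 and 309 TPM), and the part of the division of reads between them was not tested. ALDH1L2 (8.95 and 20.9 TPM) and GPT2 (12.02 and 27.6 TPM), enzymes of one-carbon and alanine metabolism, S100A6 (16.5 and 36.4 TPM), PIP5KL1 (7.73 and 17.2 TPM) and the readthrough gene NME1-NME2 (6.88 and 14.6 TPM) completed the 10. The 10 largest deficits in replicate 2 included 3 chemokine copies, CCL4L2 (46.5 and 11.9 TPM), CCL3L1 (937 and 333 TPM) and CCL3L3 (480 and 204 TPM), of which the last is identical to CCL3L1 over its whole transcript. CCL4L2 is 97.7% identical to CCL4 (65.0 and 41.2 TPM) over 39.3% of its transcript, and the related CCL4L1 moved the other way (17.8 and 23.8 TPM). The part of the division of reads among these chemokine genes was not tested. TXNIP, an inhibitor of glucose uptake, stood at 201 and 83.0 TPM. The others were RNASE6 (19.6 and 8.96 TPM), RND3 (13.7 and 6.38 TPM), HLA-DRB3, WNT10A (81.2 and 43.7 TPM) and the readthrough genes ATP5MF-PTCD1 (22.0 and 7.27 TPM) and C7orf55-LUC7L2 (24.3 and 8.42 TPM). With 1 pair of libraries no test of these differences was possible.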

How the data were processed

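RNA sequencing was done on both DMSO libraries of MM.1S cells, and the libraries of treated cells were not used here. The authors deposited 1 value per gene and library, with a gene symbol and a RefSeq accession per row. The unit is stated nowhere in the header or labels. TPM was inferred for the deposited values, since each library sums to a like total (994634 and 994463). Low values were taken to lie at whole multiples of a common step once multiplied by transcript length. Other units that divide reads by length would give such steps too, so the steps cannot separate TPM from them. HISAT2 2.0.4, Bowtie2 2.2.5 and RSEM 1.2.12 are named, without their roles, per the submitters' processing notes, and the genome build and annotation are not given in the sources used here. Multiply mapping reads can be divided by such tools among near-identical genes, so levels of genes with near copies are less certain.

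Means, ranks and log2 ratios (pseudocount 1 TPM) were computed in Python 3.11.15 with pandas 2.3.3 and numpy 2.4.6. No test was made, since 1 library against another allows none. Depth is not recorded in TPM and was estimated from the step between low values in transcripts of at least 1500 nt, with GENCODE release 29 lengths, which were found through the accession for 15231 genes and through the symbol for 679. The estimator was tested on simulated data first, and no counting interval was derived from it. A BLAST 2.17.0 search of 379 genes against the GENCODE transcripts found a near copy for 76. Promoter windows came from RefSeq on GRCh38.p14. Of 6 motifs searched, the core of the MAF site, the octamer, the TATA box and CCAAT alone are not reported further. The 33 lists hold 921 different genes, of which 894 are in the table and 828 were kept. The other 27, among them MS4A1, CD22, BCL2L11, CDKN2A and CDKN2C, and genes of the mitochondrial chromosome were not analysed here. The symbols of 23 genes had been turned into dates by a spreadsheet.

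The genes kept, the lists and the rules were chosen with earlier results of these data known. Named genes are the 6 markers, the 20 highest genes, in each list the 3 highest, the lowest and the members that contrast in role, the 10 most extreme genes between the libraries in each direction at a mean of at least 10 TPM, and 3 genes on each side of the threshold. Some genes that these rules name are not reported here. Other genes given with values were picked from the lists after their values were seen. Alternatives tried were other thresholds, pseudocounts and gene sets, each library alone, and a scale without IGLL5.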

Additional observations from a re-analysis of the deposited data

How the results depend on the processing

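The number of kept genes stayed between 9712 (mean of at least 5 TPM) and 12696 (mean of at least 0.5 TPM). It was 11129 at 2 TPM, 11732 when both libraries had to reach 1 TPM, 12044 with IGLL5 left out of the scale, and 11942 to 11965 in single libraries. Pearson's r was 0.988 with a pseudocount of 0.1, 0.995 over all genes in the table and 0.992 at a mean of at least 10 TPM. The 10 highest genes held 13.9% of the mean total, 13.1% to 14.8% in single libraries, 7.94% without IGLL5 and 15.9% without the ribosome genes. Leaving IGLL5 out of the scale raised the median gene by 0.11 on the log2 scale and list medians with it, to 242 TPM for ER entry, 233 TPM for ER folding, 201 TPM for the proteasome, 2248 TPM for the ribosome, 46.1 TPM for glycolysis, 310 TPM for the respiratory chain and 70.3 TPM for replication. List medians lower in replicate 2 numbered 15 of 33 as deposited and 19 of 33 on that scale. In single libraries list medians were 217 to 236 TPM for plasma cell genes, 7.97 to 8.90 TPM for B cell genes, 213 to 214 TPM for ER folding, 180 to 184 TPM for the proteasome, 2087 to 2088 TPM for the ribosome, 43.2 to 43.6 TPM for glycolysis, 282 to 287 TPM for the respiratory chain and 64.1 to 64.4 TPM for replication. Medians over kept genes alone were 17.1 TPM for B cell genes and 107 TPM for glycolysis.

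No paired analysis was possible because no comparison between treatments was made. Depth limits low genes: in a 1000 nt transcript a single read equals 0.214 and 0.215 TPM, so values under 1 TPM in short transcripts rest on a few reads. Whether the libraries came from separate cultures is stated only as biological duplicates.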

Other observations

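The gene lists in this section were written after the table was at hand and are descriptions. Secreted signals were dominated by a few genes: MIF stood at 2168 and 2167 TPM and CCL3 at 4210 and 2718 TPM, 64.7 and 65.9 times CCL4 (65.0 and 41.2 TPM), although CCL3 and CCL3L1 (937 and 333 TPM) are 95.8% identical and may share reads. CCL4 is likewise 96.1% identical to CCL4L2 (46.5 and 11.9 TPM) over 73.8% of its transcript, so the level of each gene in that ratio is uncertain. CCL5 stood at 309 and 367 TPM. CCR1 (308 and 245 TPM), the receptor of CCL3, was the highest of 9 chemokine receptors in the table, ahead of CCR10 (41.1 and 32.1 TPM) and CXCR4 (38.8 and 36.0 TPM). TNF was at 0 in both libraries, and DKK1, the inhibitor of bone formation made by many myelomas, was low at 2.92 and 2.61 TPM. Of 35 listed cancer-testis antigen genes only 17 were in the table, and 8 of these were kept. The kept ones were 2 of the 9 X-linked and 6 of the 8 autosomal genes in the table. MAGEA1 was the highest at 93.6 and 93.9 TPM, MAGEA10 stood at 3.92 and 4.06 TPM, and PRAME at 8.88 and 6.80 TPM.

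Of the chains of ferritin, the iron store of the cell, the light chain was the higher, with FTL at 4349.6 and 4816 TPM and FTH1 at 407 and 401 TPM, and both have processed pseudogenes. GPX4, which protects membranes from lipid peroxides, stood at 520 and 476 TPM, whereas GPX1 was listed at 0.74 and 0.94 TPM. Over 53.2% of its transcript GPX1 is 97.2% identical to a processed pseudogene, so its level is uncertain. SOD1 (912 and 983 TPM) and TXN (774 and 840 TPM) were the highest redox genes, and the NRF2 target NQO1 stood at 10.2 and 14.0 TPM. HSP90AB1 (1954 and 1926 TPM) was 3.04 and 3.21 times HSP90AA1 (643 and 600 TPM). The autophagy receptor SQSTM1 stood at 523 and 459 TPM, above all other genes of the autophagy and lysosome list in replicate 1 and in replicate 2. Of 35 genes recurrently mutated in myeloma 32 were kept, and FGFR3, LTB and ZFHX4 were under threshold. Their median was 18.0 TPM, and ACTG1 (2232 and 2441 TPM) and IDH2 (303 and 277 TPM) were among the highest, while TET2 (3.84 and 4.50 TPM) and EGR1 (1.63 and 1.51 TPM) were among the lowest kept.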
